A study of Mus musculus with 15 samples.

Results

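Peaks of open chromatin that were at least 2 times as accessible with Fra2 guides as with control guides, both early and late after transduction, were taken from a count table of 206367 consensus ATAC-seq peaks in mouse embryonic fibroblasts. For each group, the counts of its 3 libraries were summed and divided by its summed reads in peaks, which gave CPM (reads per mega reads in peaks). A peak was kept where the early and the late Fra2 over control ratio were both at least 2 and where both Fra2 groups stood at 2 CPM or more. This left 2169 peaks, 1.05% of all. The early criteria were met by 8300 peaks, of which 26.1% were also gained late, and the late criteria by 5837, of which 37.2% were also gained early. The peaks were thus selected on the measured CPM of the 4 Fra2 and control groups, and their Fra2 ratios are given as a description and carry no test.

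The early Fra2 and late Fra2 libraries came from C57 mouse embryonic fibroblasts (MEFs, connective tissue cells grown from embryos) that carried a CRISPR activation construct. Such a construct pairs a Cas9 that no longer cuts with the transcriptional activator VPR, and guide RNAs bring it to a chosen gene, here Fosl2, which encodes Fra2. Early control and late control cells carried the same construct, with its mCherry reporter, and scrambled guides. All these cells had been infected with lentivirus and sorted as mCherry+ and THY1+. Early libraries carry day 3 in their sample labels, except early control 3 with day 4, and late libraries day 10, whereas the series design gives days 4 and 11. For the Ezh2 inhibitor libraries, MEFs received GSK343, a blocker of the histone methyltransferase Ezh2, at 4 µM over 3 days and then had 1 washout day. Whether those cells were transduced or sorted is not stated, and their sample labels carry day 4. Each of the 5 groups holds 3 libraries. No label says whether these are separate cultures, so the p-values rest on library-to-library spread that could be technical alone.

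Fra2 is a Fos family subunit of AP-1, a transcription factor that works as a dimer of a Fos family and a Jun family protein and binds the letters TGANTCA, where N is any base. In fibroblasts, AP-1 is known for binding distal enhancers together with other factors and for its part in growth, wound and matrix gene programmes. Ezh2 is the catalytic subunit of the Polycomb repressive complex PRC2, which methylates lysine 27 of histone H3, a mark of silent developmental genes. Omni-ATAC-seq counts the sites where a transposase can insert adapters, so a higher value means more accessible DNA and says nothing of which protein is bound.

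Reads in peaks ranged from 6.75 M (mega reads) in early control 3, the shallowest library, to 25.3 M in Ezh2 inhibitor 3. The most accessible gene-end peaks of 29 fibroblast genes summed to 333 to 368 CPM in early Fra2, 324 to 339 in Ezh2 inhibitor, 342 to 418 in early control, 309 to 323 in late Fra2 and 348 to 378 in late control libraries. Of these genes 19 reached a mean of 10 CPM, against 2 of 9 macrophage, 3 of 19 epithelial, 1 of 10 endothelial, 3 of 15 neuronal and 1 of 14 muscle genes with such a peak. Col1a1, the collagen I chain, averaged 16.6 CPM over the 15 libraries and Twist1, a mesenchymal regulator, 12.2 CPM, while the mesenchymal genes Pdgfra and Prrx1 averaged 3.61 and 3.05 CPM. Of other cell types, Epcam, an epithelial adhesion gene, averaged 2.81 CPM, Myod1, a muscle regulator, 3.07, Cdh5, an endothelial cadherin, 4.61 and Csf1r, a macrophage receptor, 9.51. The median over all 14398 genes with a gene-end peak was 9.22 CPM, so these levels do not separate the cell types gene by gene. Thy1, the sorting marker, averaged 10.6 CPM, and Ptprc, the pan-leukocyte marker, had no gene-end peak. Early control 3 differed most from its group: the chi-square per peak against the other 2 early controls was 4.97 and 3.74, where 1 is sampling noise, against 1.86 to 2.87 for all other pairs of libraries of 1 group.

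Promoter sequence was available for few of the peaks. Examples are shown first to give the DNA just before start sites that lay in or close to a gained peak. The RefSeq table of GRCm38.p6 (mm10) gives windows of 250 bases before to 50 after each start site, 32817 different windows in all, and 19 gained peaks shared bases with 20 of them. No gained peak overlapped a miRNA hairpin of the RefSeq table. The 5 stretches below give the bases before the start site that lie inside the peak, in the direction of transcription. They were chosen after their values were seen: 2 because they hold the AP-1 letters, and 3 as examples without them, of which Plekha8 has the largest late ratio among the 19 peaks. Capitals mark the motifs searched on both strands: AP-1 TGANTCA, CRE TGACGTCA, TEAD CATTCC, RUNX TGTGGTT, ETS CCGGAAG and E-box CAGCTG.
Gm46058, chr8:124688092-124688341, minus strand: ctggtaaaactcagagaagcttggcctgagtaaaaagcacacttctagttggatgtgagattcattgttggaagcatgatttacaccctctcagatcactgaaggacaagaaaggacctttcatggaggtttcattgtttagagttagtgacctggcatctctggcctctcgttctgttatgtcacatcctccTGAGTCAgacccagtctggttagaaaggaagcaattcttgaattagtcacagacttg
Gm41934, chr1:119126857-119127085, minus strand: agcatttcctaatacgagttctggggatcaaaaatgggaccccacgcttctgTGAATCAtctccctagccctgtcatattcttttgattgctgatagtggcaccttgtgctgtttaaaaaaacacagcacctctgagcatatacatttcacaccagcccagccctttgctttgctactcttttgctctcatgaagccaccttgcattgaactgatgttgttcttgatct
Lce1l, chr3:92851287-92851536, minus strand: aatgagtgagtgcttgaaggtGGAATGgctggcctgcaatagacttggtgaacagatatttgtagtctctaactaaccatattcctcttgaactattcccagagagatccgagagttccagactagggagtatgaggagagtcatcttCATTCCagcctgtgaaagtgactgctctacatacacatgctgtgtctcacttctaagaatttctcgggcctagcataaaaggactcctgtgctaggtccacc
Tmprss11b, chr5:86676313-86676548, minus strand: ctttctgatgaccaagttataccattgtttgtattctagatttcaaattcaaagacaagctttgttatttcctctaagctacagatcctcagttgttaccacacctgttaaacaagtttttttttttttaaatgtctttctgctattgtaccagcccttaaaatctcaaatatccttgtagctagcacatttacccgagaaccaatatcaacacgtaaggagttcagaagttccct
Plekha8, chr6:54602897-54603146, plus strand: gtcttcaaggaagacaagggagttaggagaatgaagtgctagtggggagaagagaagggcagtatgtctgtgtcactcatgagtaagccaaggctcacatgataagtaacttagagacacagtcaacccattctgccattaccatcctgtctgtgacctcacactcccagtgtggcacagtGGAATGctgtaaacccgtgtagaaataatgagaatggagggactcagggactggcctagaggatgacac

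The AP-1 letters stood 57 bases before the start of Gm46058, a predicted gene on chromosome 8, as TGAGTCA, and 198 bases before the start of Gm41934, a predicted gene on chromosome 1, as TGAATCA. The capitals in the Lce1l stretch are a pair of TEAD matches, GGAATG being CATTCC read on the other strand, and the Plekha8 stretch holds 1. Another window with the AP-1 letters belonged to Zpld1, whose match fell outside the bases shared with the peak. The AP-1 letters were thus in 3 of 20 windows (15%), against 7.81% of all 32817 windows and 6.77% of the 14941 windows that share bases with another peak at 2 CPM in both Fra2 groups. The TEAD letters were in 5 of 20 (25%), against 14.7% and 12.5%. The ETS letters were in 0 of 20, against 8.86% and 16.2%, and the CRE letters in 0, against 1.79% and 2.97%. The RUNX letters were in 1 of 20 (5%), against 5.27% and 3.75%, and the E-box letters in 3 of 20 (15%), against 16.3% and 15.8%. The 20 windows had a median GC content of 44% (34% to 55.3%), against 52.7% in all windows and 61.3% in those at other peaks, and a median of 2.5 CpG, against 7 and 21. These are descriptions of 20 windows, and a match is not a bound site.

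At the Gm46058 start (peak at chromosome 8, 124687893 to 124688394) early Fra2 libraries stood at 2.91, 2.92 and 2.35 CPM and early controls at 0.928, 1.93 and 0.741 CPM. Late Fra2 libraries stood at 3.97, 3.58 and 3.99 CPM and late controls at 0.98, 1.5 and 2.42 CPM, so that the groups did not overlap at either time. The Plekha8 start shown above, of a glycolipid transfer protein gene, lay in the gene body. Its peak was 5713 bases from the nearest end of a protein-coding gene. Late Fra2 libraries reached 6.62, 7.6 and 7.29 CPM there, against 1.81, 1.56 and 1.77 CPM in late controls. In early cells the Plekha8 peak stood at 4.3, 3.87 and 5 CPM, against 1.39, 1.58 and 1.48 CPM in controls. Its late ratio of 4.17 exceeded its early ratio of 2.98. At the start of Lce1l, a late cornified envelope gene of the epidermis, early Fra2 libraries had 6.01, 4.42 and 3.97 CPM and early controls 1.19, 2.65 and 1.63 CPM. At the peak just before the start of Tmprss11b, a transmembrane serine protease gene, early Fra2 libraries had 3.05, 3.32 and 2.94 CPM. Early controls had 1.19, 0.644 and 1.63 CPM there.

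With Fra2 guides the gained peaks stood near the median of other peaks, and in control cells they were weak. Their median level was 3.93 CPM in early Fra2 and 1.52 CPM in early control cells, and 4.02 CPM in late Fra2 and 1.66 CPM in late control cells. All peaks at 2 CPM in both Fra2 groups had medians of 4.2 and 3.99 CPM in early Fra2 and early control cells, and of 4.3 and 4 CPM in late Fra2 and late control cells. The highest group level among the gained peaks was 20.9 CPM in early Fra2 cells, whereas the strongest peak of the genome reached 310 CPM there. Library by library, the median over the gained peaks was 3.93, 3.95 and 3.97 CPM in early Fra2, 1.34, 1.43 and 2.22 CPM in early control, 4.02, 4.18 and 3.86 CPM in late Fra2 and 1.88, 1.62 and 1.53 CPM in late control libraries. Early control 3 lay above the other early controls and was the highest of all 6 controls. The gained peaks held 0.952% to 1.02% of the reads of Fra2 libraries and 0.344% to 0.506% of those of control libraries. The median count behind a value was 50 to 94 reads per Fra2 library and 15 to 28 reads per control library, and the median peak in early control 3 rested on 15 reads. In bulk libraries, more cells with an open site and more opening per cell cannot be told apart.

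**Figure D1:**
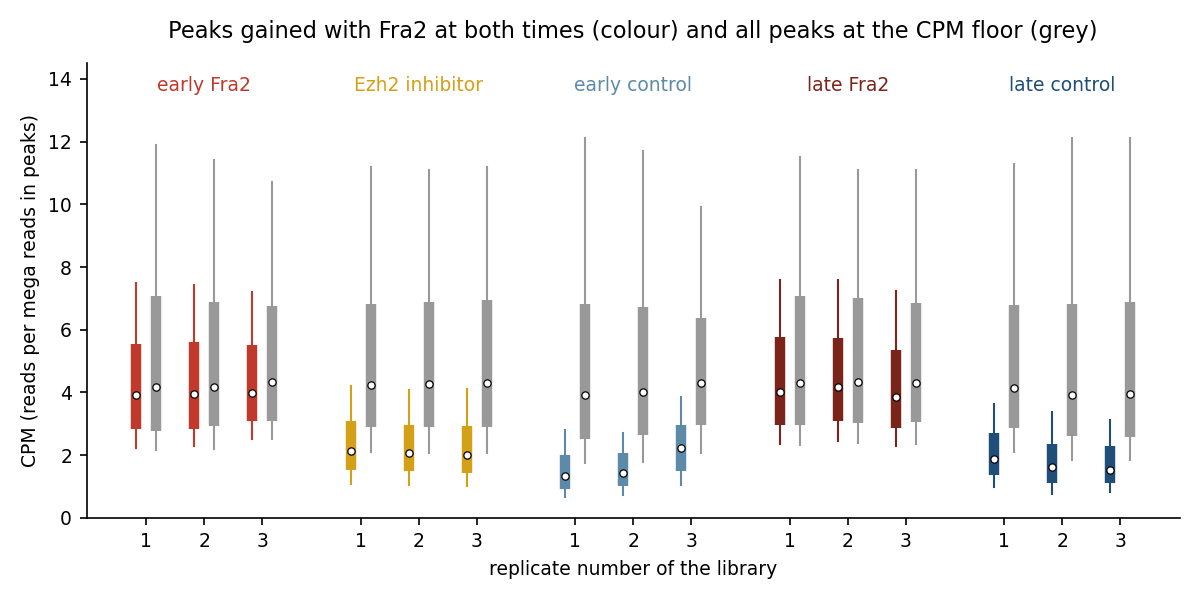
CPM in each of the 15 libraries for the 2169 peaks gained at both times (colour) and for the 154773 peaks at 2 CPM or more in both Fra2 groups (grey); circles are medians, thick bars the middle 50% and thin lines the 10th to 90th percentile of peaks. The coloured medians lie at 3.86 to 4.18 CPM in the 6 Fra2 libraries, at 2.02 to 2.14 CPM with the Ezh2 inhibitor and at 1.34 to 2.22 CPM in the 6 control libraries.

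The early ratio had a median of 2.5 and a maximum of 7.44, and the late ratio a median of 2.31 and a maximum of 5.86. The early ratio was the larger at 1387 peaks and the late ratio at 782. Both ratios were 3 or more at 81 peaks and 4 or more at 5. The late over early Fra2 level had a median of 1.02, as at all peaks (1.02), with a 10th to 90th percentile of 0.775 to 1.33, while the late over early control level was 1.12, against 0.982 at all peaks. At 187 peaks the early ratio was at least 1.5 times the late one, and at 41 the reverse held. Every early Fra2 library lay above every early control library at 1850 peaks (85.3%, against 15.1% of all peaks), and every late Fra2 library above every late control library at 2131 (98.2%, against 18.9%). Both held at 1822 peaks (84%, against 7.68%). In the edgeR fit over all peaks, 2075 (95.7%) were called higher early, where 10.1% of all tested peaks were, and 2066 (95.3%) late, where 6.44% were. None was called lower at either time (0 early, against 4.92% of all, and 0 late, against 3.54%). Since these contrasts chose the peaks, nothing is read from those shares.

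**Figure D2:**
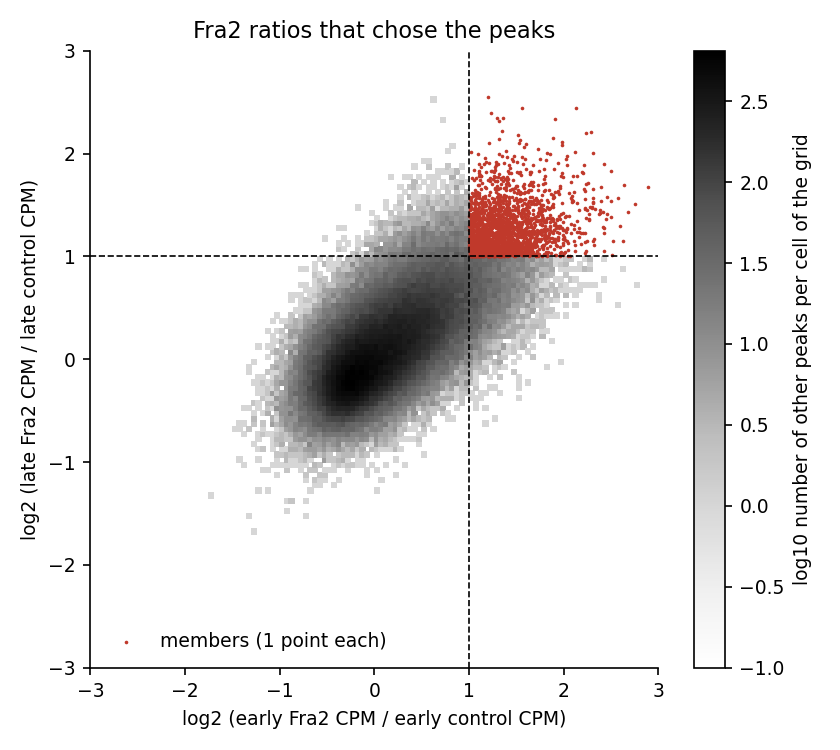
Late against early ratio of Fra2 to control CPM on log2 axes; red points are the 2169 peaks gained at both times, grey cells count the other peaks at 2 CPM or more in both Fra2 groups, and dashed lines mark the ratio of 2. The red points extend to an early ratio of 7.44 and a late ratio of 5.86, and most lie close to the lines, with medians of 2.5 and 2.31.

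Many peaks lay near the thresholds. Another 2523 peaks missed the early ratio alone and 5282 the late ratio alone, while 148 and 113 missed the early or the late Fra2 level alone. Just inside the early threshold, with ratios from 2.001 to 2.002, were peaks in C1qtnf7 and Ccdc148 and a peak with no gene within 100 kb. Just outside, with ratios of 1.998 to 1.999, were peaks at Ddr2, a collagen receptor, 4930453N24Rik and Fto. At the late threshold the nearest peaks inside were in Qrsl1, Rgl1 and Ppp1r12a, and the nearest outside were at Sulf2, Cacul1 and a peak far from genes, each with a ratio that rounds to 2. At the level thresholds, the peaks inside stood at 2.003 to 2.004 CPM (Nav3, Grid1 and C1qtnf7 among them) and those outside at 1.984 to 1.986 CPM (Sema5a, Ankrd28, Nrxn3 and Col11a1 among them).

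The ratios varied with the library, and early control 3 gave the smallest. The rule was applied 12 times, each time without 1 of the early or late libraries, and the library left out was then set against the opposite group, which did take part in the choice and so by itself favours a ratio above 1. With an early Fra2 library left out, 2074 to 2345 peaks were chosen, and its median ratio to the early controls was 2.38 to 2.52. Late Fra2 libraries gave 2.12 to 2.34. Left-out late controls gave a median late Fra2 over control ratio of 1.86 to 2.3, and left-out early controls 1 and 2 gave 2.7 and 2.61. Early control 3 gave 1.65, with 85.7% of its 2625 peaks on the Fra2-higher side, against 97.9% to 100% for the other 11 libraries and 44.9% to 57.4% over all peaks. A ratio of 2 or more was kept by 35.2% of the peaks with early control 3, by 41.8% with late control 1 and by 59.9% to 80.9% with the other 10 libraries. Over all peaks at 2 CPM in the Fra2 group of the same time, the median ratio was 1.01 to 1.07 in all 12 cases.

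Between the times, whose libraries are separate, the gains were shared in part. Of the 8300 peaks that met the early criteria, 4006 (48.3%) were called higher with late Fra2 guides (edgeR, adjusted p under 0.05), where 6.44% of all tested peaks were, and their median late log2 fold change was 0.71, against −0.01 over all peaks. Of the 5837 peaks that met the late criteria, 2787 (47.7%) were called higher early, where 10.1% of all were, with a median of 0.82, against −0.03. The late log2 fold change was above 0 at 8021 of the early-gained peaks (96.6%, against 49.3% of all peaks), and the early one at 5509 of the late-gained peaks (94.4%, against 47.3%).

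The gained peaks were rarely at the ends of genes. Only 45 (2.07%, 95% exact binomial interval 1.52% to 2.77%) had their centre within 1 kb of either end of a RefSeq protein-coding gene. The interval takes the peaks as independent, and it covers neither the spread between libraries nor the choice of thresholds. Of the peaks at 2 CPM in both Fra2 groups, 15.7% lay at gene ends. A further 929 gained peaks (42.8%, against 46.3%) lay in gene bodies and 1195 (55.1%, against 38%) outside genes. With no protein-coding gene within 100 kb there were 563 (26%, against 10.4%). Start sites outside chromosome 18 gave the same picture: 27 of 2082 gained peaks (1.3%) had a RefSeq start within 1 kb, against 15.2%, and the median distance to a start was 45.3 kb, against 17.9 kb. Peaks gained only early or only late were placed alike, with 1.75% and 2.24% at gene ends and 20% and 24.8% beyond 100 kb of a gene. The difference was present within each range of peak strength: among peaks with a mean Fra2 level of 2 to 4 CPM, 1.92% of the gained and 9.01% of all lay at gene ends, from 4 to 8 CPM 2.26% and 16.4%, and above 8 CPM 2.08% and 30.3%.

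**Figure D3:**
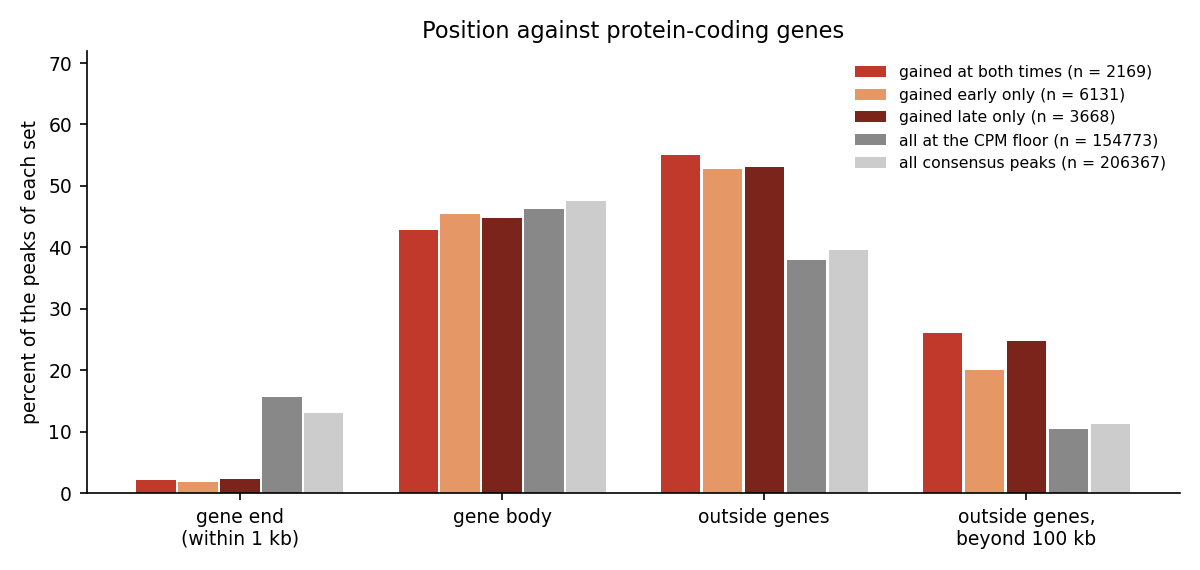
Percent of each set of peaks at gene ends (centre within 1 kb of an annotated end of a protein-coding gene), in gene bodies, outside genes, and outside genes beyond 100 kb; bars are peaks gained at both times, gained only early, gained only late, all at 2 CPM in both Fra2 groups, and all consensus peaks. The 3 gained sets stand at 1.75% to 2.24% at gene ends, against 15.7% and 13% in the other sets.

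The deposited peak lists, called per library by the authors, gave the same regions in another form, from the same reads. Of the gained peaks, 1858 to 2154 overlapped a listed peak in each early Fra2 library and 2065 to 2168 in each late Fra2 library, against 87 to 886 in early control and 561 to 972 in late control libraries. The shallowest library, early control 3, had 87, and it listed peaks at 35.4% of all consensus peaks, against 62% to 92.6% in the other 14 libraries. The depth of a library moves with the number of peaks called in it, and its part in these counts was not tested. In all 6 Fra2 lists there were 1695 gained peaks (78.1%, against 75.7% of peaks at 2 CPM in both Fra2 groups). In no control list there were 818 (37.7%, against 2.47%), and 434 (20%, against 0.784%) were in all 6 Fra2 lists and in no control list. The 434 had a median of 3.17 CPM in Fra2 and 1.22 CPM in control cells, and 5 of them lay at gene ends. Of the 434, 110 were in all 3 inhibitor lists (25.3%, against 29.6% of the peaks at 2 CPM in both Fra2 groups with the same pattern) and 124 in none of them (28.6%, against 22.9%). Where a gained peak was listed, the authors' median fold enrichment was 4.54 to 8.62 in Fra2 and 2.7 to 4.26 in control libraries.

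Fosl2 itself, the targeted gene (chromosome 5, 32136472 to 32157840), was among the genes with the most gained peaks, 4 of its 36, all past its annotated end of higher coordinate. The nearest, 0.596 kb past that end (32158186 to 32158687), stood at 7.26, 7.97 and 9.42 CPM in early Fra2 and 4.02, 3.51 and 4 CPM in early control libraries, and at 7.13, 8.08 and 8.22 CPM in late Fra2 and 4.15, 3.07 and 3.24 CPM in late control libraries. The groups were apart at both times, with ratios of 2.1 early and 2.26 late. The next, 4.27 kb past the end (32161859 to 32162360), had the largest early ratio of the 4, 3.59, from 4.95, 6.24 and 8.39 CPM in early Fra2 and 1.08, 2.08 and 2.96 CPM in early control libraries. Late Fra2 libraries stood lower there, at 2.99, 3.47 and 3.74 CPM, against 1.51, 1.21 and 1.83 CPM in late controls. The remaining 2 peaks, 5.08 and 5.8 kb past the end, had ratios of 2.18 and 2.24 early and of 2.04 and 2.45 late. In the inhibitor libraries the 4 peaks did not pass the test (edgeR adjusted p from 0.119 to 0.879). Transcript levels were not measured in these files, so the activation of Fosl2 could not be checked.

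The largest gains at both times, ranked by the smaller of the 2 ratios among peaks with control levels of at least 0.5 CPM, were near genes of unlike functions. Emcn encodes endomucin, a surface sialomucin of endothelial cells, and the peak 67.7 kb from it (chromosome 3, 137273065 to 137273566) stood at 3.05, 3.39 and 3.61 CPM in early Fra2 and 0.825, 0.358 and 0.889 CPM in early control libraries. Late Fra2 libraries had 5.08, 5.15 and 4.55 CPM there and late controls 1.36, 1.39 and 0.53 CPM, for ratios of 4.9 and 4.62. The Emcn peak was the 1 gained peak of the endothelial list (245 peaks). Pam encodes an enzyme that amidates peptide hormones, and its gene-body peak (chromosome 1, 97995672 to 97996173) had ratios of 4.71 early and 4.61 late. Its levels were 2.54, 4.18 and 3.24 CPM in early Fra2 and 0.619, 0.931 and 0.296 CPM in early control, and 4.19, 3.91 and 4.79 CPM in late Fra2 and 0.754, 0.868 and 1.12 CPM in late control libraries. None of the Emcn and Pam values overlapped between Fra2 and control libraries.

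Prkg1, the cGMP-dependent protein kinase of smooth muscle and other cells, held 4 gained peaks, and the strongest of this ranking in its body (chromosome 19, 30921072 to 30921573) stood at 8.32, 8.45 and 8.09 CPM in early Fra2 and 1.65, 1 and 3.11 CPM in early control libraries. Late Fra2 libraries had 7.35, 9.28 and 7.35 CPM and late controls 2.56, 2.26 and 1.24 CPM there. Early control 3 was the highest early control at this peak. At Plch2, a phospholipase C gene, early control 3 read 4 CPM against 0.825 and 0.716 CPM in the other 2, close to the early Fra2 libraries at 5.69, 4.42 and 5.22 CPM. The same library read 3.85 CPM, against 0.567 and 0.931 CPM, at Xylt1, whose enzyme starts glycosaminoglycan chains. The early Fra2 libraries had 5.18, 5.45 and 4.49 CPM at Xylt1. In late cells the ratios were 4.34 at Plch2 and 3.84 at Xylt1, and these late ratios also entered the choice and the ranking. Hint3 (ratios of 3.96 and 4.23) and a peak on chromosome 6 with no gene within 100 kb (66125829 to 66126330; 4.35 and 4.05) were also among the 8.

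**Figure D4:**
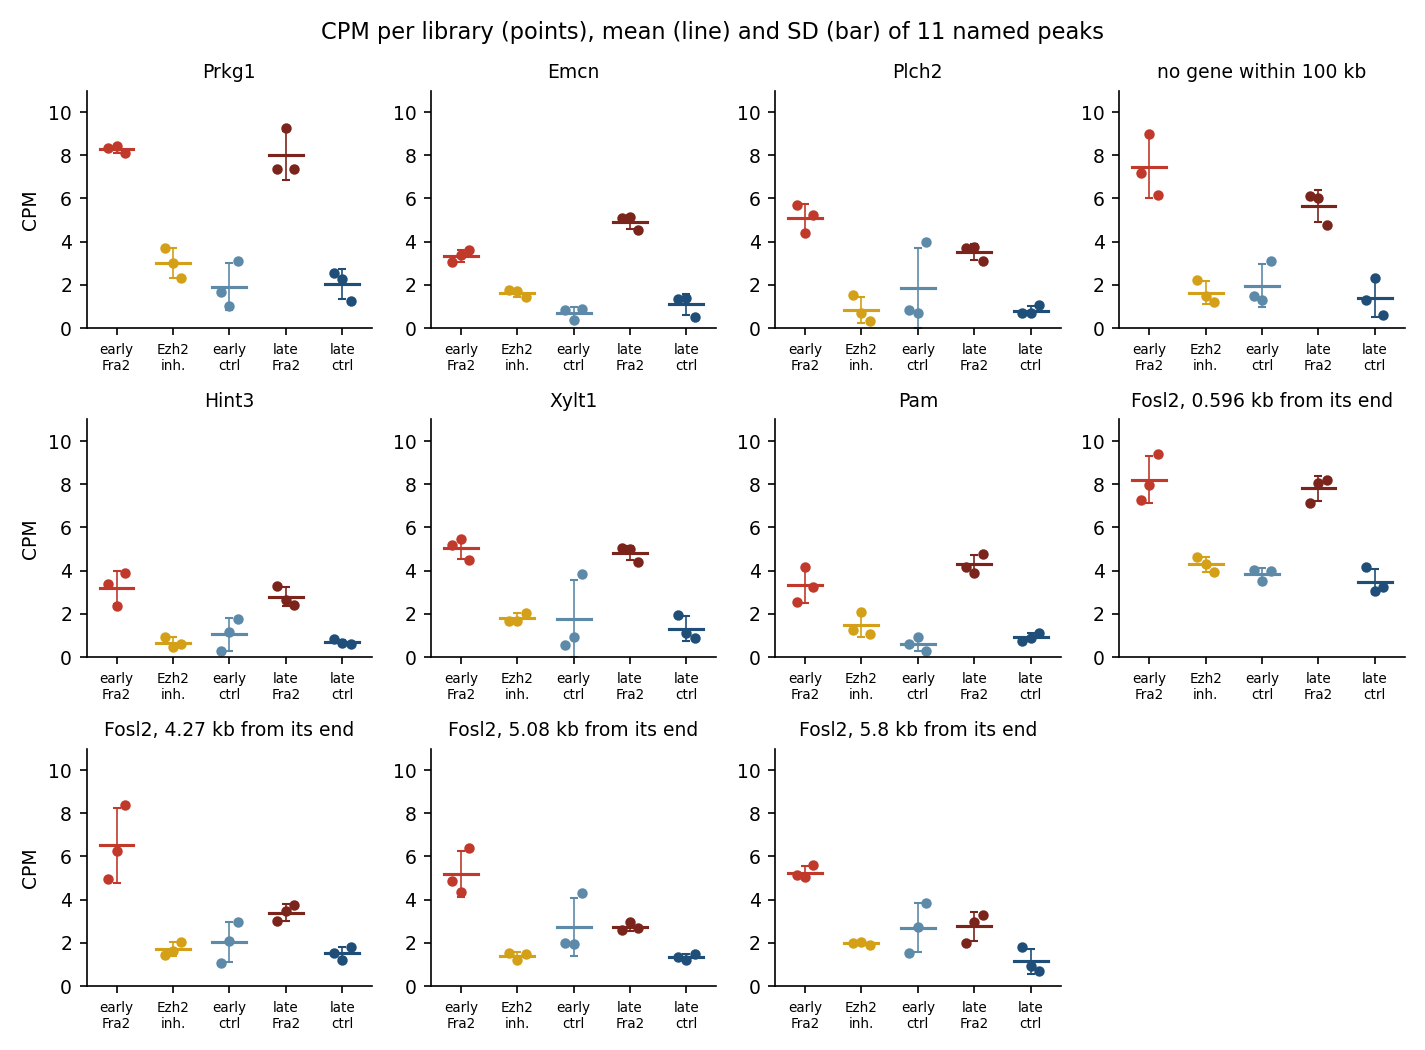
CPM of each library (points), group mean (line) and SD (bar, n = 3) at 7 of the 8 peaks with the largest smaller ratio and at the 4 gained peaks past the end of Fosl2, in early Fra2, Ezh2 inhibitor, early control, late Fra2 and late control cells. Fra2 libraries lie above all control libraries of their time in the 11 panels, and 1 early control stands at 4 CPM at Plch2 and at 3.85 CPM at Xylt1.

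The most accessible of the gained peaks were mostly open in control cells as well. The highest by the mean of both Fra2 groups, 17 kb from Grb14, an adaptor of the insulin receptor (chromosome 2, 65039554 to 65040055), stood at 18.3, 20 and 17.9 CPM in early Fra2 and 8.82, 7.81 and 9.48 CPM in early control, and at 17.6, 19.4 and 19.1 CPM in late Fra2 and 6.79, 6.94 and 8.48 CPM in late control libraries. It was in all 6 control peak lists. A peak in Cntn5, a neuronal cell adhesion gene (chromosome 9, 10229699 to 10230200), stood higher early than late, with ratios of 2.46 and 2.67: it read 22.4, 21.2 and 18.3 CPM in early Fra2 and 9.03, 9.17 and 5.63 CPM in early control, and 10.2, 9.71 and 9.47 CPM in late Fra2 and 4.3, 3.59 and 3.3 CPM in late control libraries. Slc6a15, an amino acid transporter gene, had the widest early contrast of this group, 18.6, 16.6 and 14.6 CPM in early Fra2 and 2.94, 3.58 and 4.44 CPM in early control libraries, at 85.7 kb from the gene. Others of the 8 lay at Grk5, a receptor kinase, Cse1l, a nuclear export factor of importin alpha, Map3k8, a kinase of inflammatory signalling, and 146 kb from a gene on chromosome 5 (63034029 to 63034530), with ratios of 2.32 to 3.39 early and 2.03 to 2.79 late.

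Gained peaks were spread over many genes rather than gathered at few. The 1606 with a protein-coding gene within 100 kb were nearest to 1345 genes, of which 1141 had a single gained peak, 159 had 2 and 45 had 3 or more. Counted once per peak, the nearest gene had a median length of 102 kb for the gained peaks, against 59.5 kb for all consensus peaks and 56.9 kb for those at 2 CPM in both Fra2 groups. Grid1, a glutamate receptor delta subunit gene of 763 kb, held the most, 6 of its 31 peaks, followed by Astn2, an astrotactin gene of neuronal migration, with 5 of 57. Cntn5 and Fam189a1 had 4 of 31 each, Csmd1 4 of 40, Enah, an actin filament regulator, 4 of 54, Cacna2d3, a calcium channel subunit gene, 4 of 83, and Prkg1 4 of 107. The 6 Grid1 peaks had early ratios of 2.4 to 3.25 and late ratios of 2.28 to 3.28. The most accessible of the Grid1 peaks (chromosome 14, 35520019 to 35520520) stood at 7.4, 8.21 and 8.31 CPM in early Fra2 and 2.58, 1.86 and 3.11 CPM in early control libraries. The 5 Astn2 peaks had early ratios of 2.23 to 2.59 and late ratios of 2.04 to 3.72.

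Among the 22 gene lists, the share of peaks that were gained at both times ranged from 0% to 1.72%, with 18 lists below the 1.05% of all peaks and 4 above it. The AP-1 family, with 5 of 291 (1.72%), was highest, through the 4 Fosl2 peaks and 1 at Maf, a related basic leucine zipper factor. None of the peaks nearest to Fos, Jun, Junb or Fosl1 was gained at both times. AP-1 target, protease and wound genes had 5 of 900 (0.556%), among them 1 each at Dusp4, a MAP kinase phosphatase, and Tnc, the matrix protein tenascin C. The Tnc peak, 82.5 kb from the gene (chromosome 4, 64129230 to 64129731), stood at 9.48, 9.47 and 5.89 CPM in early Fra2 and 2.89, 3.94 and 3.26 CPM in early control libraries. Late Fra2 libraries had 4.57, 5.32 and 2.99 CPM at Tnc, and the lowest of them was below the highest late control (3.09, 1.79 and 0.825 CPM).

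Fibroblast identity genes had 8 of 963 peaks (0.831%), at Fbn1, the microfibril protein fibrillin, Prrx1, a limb mesenchyme factor, Col6a3 and Twist1. Myofibroblast and contractile genes had 1 of 843 (0.119%), at Mrtfb, a coactivator of serum response factor. Integrin and focal adhesion genes had 6 of 962, 2 of them at Ptk2, the focal adhesion kinase. The stronger in ratio of those Ptk2 peaks (chromosome 15, 73270815 to 73271316) read 5.92, 6.95 and 6.62 CPM in early Fra2 and 0.825, 1.5 and 1.78 CPM in early control libraries, and 5.51, 8.03 and 5.29 CPM in late Fra2 and 2.56, 2.66 and 1.83 CPM in late control libraries. TGF-beta and BMP signalling genes had 6 of 759, at Bmpr1b, Grem1, Inhba, Ltbp1 and Smad4. YAP-TEAD genes had 4 of 649, at Amotl2, Ccn2, Crim1 and Tead4. Cytokine genes had 4 of 334, at Csf1, the macrophage growth factor, Il1rl1, the IL-33 receptor, Lifr and Ptgs1.

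Senescence and p53 genes had 2 of 294, at Pmaip1, the gene of the cell death protein Noxa, and Sesn1, a stress-induced sestrin. At Pmaip1 the peak 19.5 kb from the gene stood at 11.5, 11.2 and 10.9 CPM in early Fra2 and 2.79, 2.51 and 3.56 CPM in early control, and at 9.06, 7.43 and 7.53 CPM in late Fra2 and 2.87, 3.53 and 2.65 CPM in late control libraries. Hox cluster genes had 0 of 310 and macrophage genes 0 of 116. Polycomb-bound developmental regulators had 6 of 727, among them 1 each at Foxd1, Lhx2, Meis1, Msx2 and Pax9. Genes of PRC2 and PRC1 had 2 of 338, at Aebp2 and at Ezh2 itself. Neuronal genes had 7 of 444 (1.58%), among them peaks at Gria2, Grm8 and Nrxn3. Chondrogenic and osteogenic genes had 3 of 378 (Runx1, Runx2 and Sox5), adipogenic genes 2 of 488 (Klf5 and Ppargc1a), muscle genes 2 of 156 (both at Ryr2), epithelial genes 1 of 213 (Grhl2), pluripotency genes 1 of 189 (Klf5), interferon genes 1 of 128 (Cmpk2) and ribosomal protein genes 1 of 278 (Rps12). Peaks were assigned by distance alone, which does not show the gene on which a peak acts, and counts this small do not set a list apart.

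Among the 45 gained peaks at gene ends, the highest Fra2 levels were at genes of unlike functions. At Syt16, a synaptotagmin-like gene, the peak at a gene end (chromosome 12, 74267064 to 74267565) stood at 8.27, 7.82 and 7.36 CPM in early Fra2 and 3.09, 2.86 and 4.3 CPM in early control, and at 8.88, 8.08 and 7.47 CPM in late Fra2 and 3.39, 3.7 and 2.77 CPM in late control libraries. At Spcs1, a signal peptidase subunit gene, late Fra2 libraries had 10.5, 10.6 and 9.47 CPM and late controls 4, 4.28 and 3.89 CPM. Csf1 had a gene-end peak (chromosome 3, 107741025 to 107741526) that was higher late than early, at 2.82, 3.55 and 4.78 CPM in early Fra2 and 1.96, 1.43 and 1.78 CPM in early control, and at 5.81, 7.38 and 7.6 CPM in late Fra2 and 3.09, 3.24 and 2.95 CPM in late control libraries. The others named for their Fra2 level were at Wdr60, Idi2, Aldh7a1, Gm5544, Klrg1 and Fosl2, with ratios of 2.06 to 3.88.

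The Ezh2 inhibitor libraries had no part in choosing the peaks, so they gave a measure of their own, although the early controls they are set against did take part. Those controls were transduced and sorted, which is not stated for the inhibitor cells. The inhibitor libraries carry day 4 in their labels, as does early control 3, whereas early controls 1 and 2 carry day 3. The S numbers in the titles are 27 to 29 for the inhibitor and 1 to 3 for the early controls. Whether these numbers mark a batch is not stated. Drug, transduction, sorting, labelled day and any batch therefore cannot be told apart in this comparison. At the gained peaks the inhibitor libraries stood at medians of 2.14, 2.08 and 2.02 CPM, above early controls 1 and 2 (1.34 and 1.43 CPM) and below early control 3 (2.22 CPM). Their group median of 2.08 CPM was 0.528 times the early Fra2 level peak by peak. Ezh2 inhibitor cells were above both the early and the late control group at 1516 peaks (69.9%, against 40.1% of all peaks), below both at 197 (9.08%, against 27.8%), and above the early Fra2 group at 16 (0.738%, against 54.8%). The rule keeps peaks that are low in both control groups and high in Fra2 cells, which favours this order. Every inhibitor library lay above every early control at 616 (28.4%, against 11.9% of all peaks). In the edgeR fit of all 15 libraries 121 gained peaks were called higher with the inhibitor than in early controls (5.58%, against 0.552% of all tested peaks) and 2 lower (0.0922%, against 0.341%). Their median log2 fold change was 0.39, against 0 over all tested peaks. At an unadjusted p under 0.05, 697 were higher (32.1%, against 7.51% of all tested peaks) and 20 lower (0.922%, against 7.15%).

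The number of calls depended on the libraries and the fit. Without early control 3 it was 307 (14.2%, against 1.42% of all), and without early control 2 it was 32 (1.48%, against 0.0964%). Without inhibitor library 1 it was 33 (1.52%, against 0.0955%), without library 2 it was 44 (2.03%, against 0.129%) and without library 3 it was 32 (1.48%, against 0.0829%). With early control 1 left out it was 109 (5.03%, against 0.843%). In a fit of the 6 libraries of the comparison alone it was 2 (0.0923%, against 0.00485%), while the median log2 fold change was 0.37. The early controls are shared with the rule, which favours peaks that are low in them. The 5837 peaks gained late were chosen without any early library, and 167 of them were called higher with the inhibitor (2.86%, against 0.552% of all) and 3 lower, with a median log2 fold change of 0.23 and 4126 above 0 (70.7%, against 49.9% of all). Among the 3668 gained late and not early, 46 were called higher (1.25%, against 0.552% of all). That subset was chosen with the early libraries, the early controls among them. The rest of the 167 were the 121 peaks gained at both times that are counted above. Without early control 3, 442 of the 5837 were called higher (7.57%, against 1.42%), and in the 6-library fit 2 (0.0343%, against 0.00485%).

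**Figure D5:**
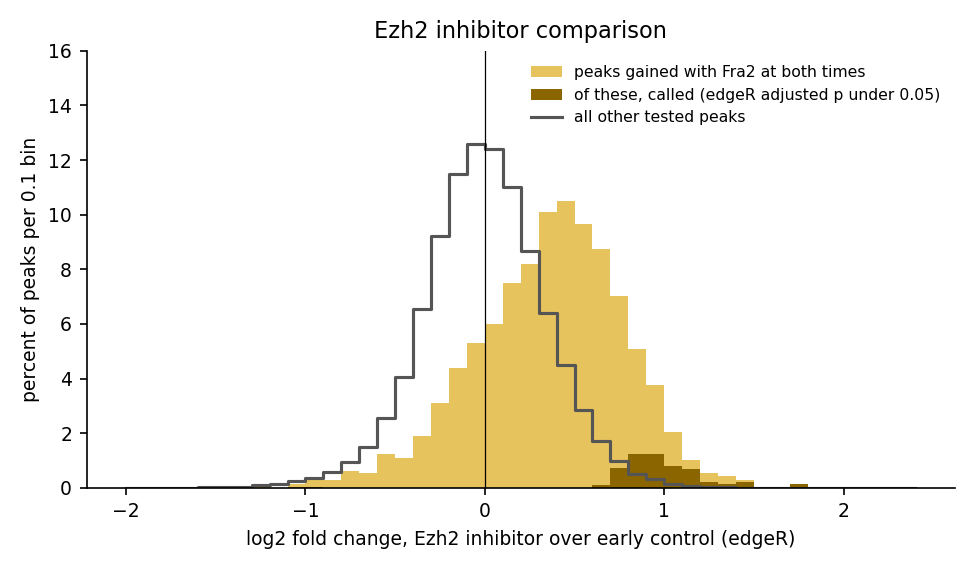
Distribution of edgeR log2 fold changes of Ezh2 inhibitor over early control, in bins of 0.1, for the 2169 peaks gained with Fra2 at both times (light bars), those of them called at an adjusted p under 0.05 (dark bars) and all other tested peaks (line). The light bars centre on 0.39 and the line on 0, and the dark bars hold 121 peaks called higher.

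By p-value, the first gained peaks called higher with the inhibitor were 1 on chromosome 14 with no gene within 100 kb and 1 in Ndufa10, a respiratory complex I subunit gene. The chromosome 14 peak (92303086 to 92303587) stood at 5.93, 3.75 and 4.75 CPM in inhibitor and 1.65, 0.931 and 1.19 CPM in early control libraries, with a log2 fold change estimated at 1.83 ± 0.24 (SE; edgeR adjusted p = 1.37e-05, and 1.83e-06 to 0.0272 over 12 alternatives). The Ndufa10 peak (chromosome 1, 92446754 to 92447255) stood at 5.66, 5.41 and 4.35 CPM in inhibitor and 1.96, 1.5 and 1.78 CPM in early control libraries (1.5 ± 0.21; edgeR adjusted p = 5.96e-05, and 5.54e-06 to 0.0335). These 2 were called under all 12 alternatives. Early Fra2 libraries had 6.33, 6.24 and 6.18 CPM at Ndufa10, so that its inhibitor level lay close below the Fra2 level. At Dcc, the netrin receptor gene, inhibitor libraries read 7.05, 7.77 and 6.64 CPM and early controls 3.09, 3.8 and 2.07 CPM (1.15 ± 0.19; edgeR adjusted p = 0.000924, and 0.0624 at most over the alternatives).

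At Ptprt, a receptor phosphatase gene, inhibitor libraries stood at 10.3, 9.48 and 10 CPM, early Fra2 libraries at an overlapping 10.2, 11.1 and 9.71 CPM, and early controls at 4.75, 5.16 and 4.74 CPM (log2 fold change 0.98 ± 0.16; edgeR adjusted p = 0.00112). The Ezh2 gene-body peak (chromosome 6, 47532454 to 47532955) had 6.82, 6.48 and 8.07 CPM with the inhibitor and 4.28, 3.22 and 3.85 CPM in early controls (0.86 ± 0.18; edgeR adjusted p = 0.011, called in 9 of 12 alternatives). In early Fra2 libraries the Ezh2 peak read 8.13, 8.84 and 9.71 CPM. The Nrxn3 peak (1.28 ± 0.25; edgeR adjusted p = 0.0073) and the Ptk2 peak described above (1.35 ± 0.26; 0.00625) were also called higher, each in 10 of 12 alternatives. None of these was called in the 6-library fit, where their adjusted p was 0.0624 to 0.112.

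The 2 gained peaks called lower with the inhibitor were a peak on chromosome 14 (46155689 to 46156190) and one in Mapre2, a microtubule end-binding protein gene. Inhibitor libraries had 1.96, 1.99 and 1.23 CPM at the first and early controls 3.09, 3.08 and 3.41 CPM (log2 fold change −0.92 ± 0.24; edgeR adjusted p = 0.0412). At Mapre2 they had 1.2, 1.34 and 0.712 CPM and early controls 1.65, 2.22 and 3.26 CPM (−1.06 ± 0.28; edgeR adjusted p = 0.0485). Each was called in 5 of 12 alternatives, and Mapre2 not without early control 3 (edgeR adjusted p = 0.0704). None of the 8 peaks with the largest gains at both times passed the test, among them Prkg1 (0.77 ± 0.26; edgeR adjusted p = 0.124), Emcn (1.23 ± 0.36; 0.0722) and Pam (1.08 ± 0.38; 0.148).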

How the data were processed

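Accessibility was measured by Omni-ATAC-seq in 15 libraries, 3 in each of 5 groups taken from the sample titles. The authors deposited whole-number read counts for 206367 consensus peaks, and 15 peak lists. Each deposited list gives per peak a fold enrichment (the caller's ratio of signal to background), −log10 q and a summit offset. Of the deposited columns the −log10 values of q served only for the stricter overlap setting. The submitters' processing notes name MACS2, without a version, and mm10. No source used here names the aligner, duplicate handling, read shift or counting tool; each can change counts at weak peaks. No sample column was left unused (0). The summit offset is another deposited value, used only to measure how far a listed summit lay from the centre of the consensus peak. Overlap with a list was decided by start and end positions.

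Group CPM was computed from summed counts and totals without a pseudocount. Counts were tested with edgeR 4.0.16 (R 4.3.3; quasi-likelihood F-test, TMM, default filter, 1 fit of all 15 libraries), adjusted by Benjamini-Hochberg over all 206349 tested peaks and called at 0.05. The scripts were tested on simulated data. DESeq2 1.42.0 was an alternative. Positions and promoter windows came from RefSeq tables of GRCm38.p6; no genome was used, so distal peaks have no sequence here, and windows on chromosome 18, with 87 gained peaks, were not used, which leaves 2082. Replicate numbers come from the titles and no label says that they mark a shared culture or batch. Reads in peaks ranged from 6.75 to 25.3 M per library, and 3 counts correspond to 0.119 to 0.444 CPM, which covers counting error only.

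The peaks and the 22 gene lists (567 of 582 symbols matched) were chosen with earlier results of these data known. Peaks are named by rank of the smaller ratio (8), by Fra2 level (8), by genes with most gained peaks (8), by list (up to 3), by threshold (3 each side), by inhibitor p (6 each way), at gene ends (8) and within 10 kb of Fosl2. Genes added outside this rule are those with a promoter window. Some peaks that the rule names are not reported here.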

Additional observations from a re-analysis of the deposited data

How the results depend on the processing

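The number of peaks depended most on the thresholds and the scaling: it was 11971 at a ratio of 1.5, 81 at 3, 903 at a level of 4 CPM and 5268 with factors from gene-end peaks, which moved the median log2 ratio of all peaks to 0.18 early, 0.22 late and 0.16 for the inhibitor (−0.03, −0.01 and 0 under TMM) and kept all 2169. Leaving out 1 library at a time gave 1777 to 2692. Under TMM library sizes 83.5% of the 2169 remained, and under equal weight per library 73.7%. With the median ratio set to 1 within 20 bins of accessibility, an alternative chosen after seeing the data, 71.1% remained. From the weakest to the strongest bin the median log2 ratio went from −0.02 to −0.18 early and from 0.29 to −0.24 late. In the bins of the gained peaks its median was −0.01 early and 0.10 late. The share at gene ends was 0.83% within 0.5 kb (9.55% of peaks at 2 CPM in both Fra2 groups) and 3.96% within 2 kb (22.2%). Peaks in a control list numbered 1351, 1208 at a −log10 q of 2 and 989 with an overlap of at least 0.5 of the peak.

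For the inhibitor, 121 gained peaks were higher (5.58%, against 0.552% of all peaks) and 2 lower as reported. With gene-end factors 354 were higher (16.3%, against 3.58%) and 0 lower. In the 6-library fit it was 2 and 0. That fit has fewer libraries and takes its spread from the inhibitor and early control libraries alone. The cause of these shifts was not tested. Leaving out 1 library gave 32 to 307 higher and 0 to 3 lower. DESeq2 gave 97 higher (4.47%, against 0.421% of all) and 2 lower, with no adjusted p for 1172 of the 2169 gained peaks. Of the 5837 late-gained peaks, 167 were higher as reported (2.86%, against 0.552% of all) and 533 with gene-end factors (9.13%, against 3.58%). In the 6-library fit it was 2, and with 1 library left out 40 to 442. With the replicate number as a block, 135 gained peaks were higher (6.22%, against 0.627% of all) and 2 lower. Of the late-gained peaks, 184 (3.15%) were higher in that fit. Same-numbered libraries correlated at −0.192 to 0.262 in their deviations from group means, and libraries of unlike number at −0.272 to 0.204. The highest values were at early Fra2 and early control 1 (0.262) and 3 (0.232), while at 2 it was −0.00847. No label pairs the libraries, so the numbers entered only the alternative fit with a block. Of 112 named peaks, 19 were called in the inhibitor comparison as reported. Over the 12 alternatives, 61 calls were lost among these 19, 32 were gained among the other named peaks and 0 reversed. Depth limits early control 3 most, at a median of 15 reads per gained peak.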

Other observations

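The gained peaks were spread over the genome. Their share of a chromosome's consensus peaks ranged from 0.646% on chromosome 11 (90 of 13938) and 0.69% on chromosome 7 (84 of 12181) to 1.48% on chromosome 14 (124 of 8372) and 1.47% on chromosome 3 (167 of 11372). Neighbouring gained peaks lay a median of 678 kb apart, and 94 of them (4.33%) had another within 10 kb, in 49 neighbouring pairs. Those at Fosl2 are among these pairs. Control levels of the gained peaks varied: 125 were under 1 CPM in both control groups, and 125 were at 3 CPM or more in both.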
